A study of Mus musculus with 6 samples.

Results

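Goblet cell genes were followed in the neonatal mouse lung through 5 gene symbols of the array, Clca3, Clca1, Clca2, Agr2 and Foxa2. Every row of the deposited table with one of these symbols was taken, which gave 6 probes of the 25697 on the array, 2 of them for Foxa2. Clca3 was included because its signal was lost in hSRY-ON lungs, so its difference between the groups is described here without a test. Of the 6 probes, 2 passed the filter on dim signals that left 13841 probes for testing, 1 of Clca3 and 1 of Foxa2, and the Clca3 probe passed through the hSRY-OFF arrays alone.

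The lungs came from 6 male mice of strain FVB (FVB/N in the study's methods) at postnatal day 6, 3 labelled hSRY-OFF and 3 labelled hSRY-ON, with 1 Illumina MouseRef-8 BeadChip per mouse. The transgene, Signalox-hSRY, was inserted as a single copy at the H11 locus and keeps the human sex-determining gene SRY silent until Cre recombinase places it under the CAG promoter, which is active in nearly all cells. In hSRY-ON mice the recombination was made by Cre that Ddx4-Cre mothers deposit in the oocyte, and the hSRY-ON mice chosen by the study lacked the Ddx4-Cre transgene themselves. The name hSRY-OFF is given in the methods to the transgene without recombination, but the study also describes its comparison animals as littermates without the transgene, so the genotype of the hSRY-OFF mice rests on their label. Since the transgene was active in all tissues from the early embryo, effects within airway cells and effects that reach them from elsewhere cannot be told apart. No probe for human SRY is on the array. Between 13191 and 14134 probes were detected per array, and Sftpc, the surfactant gene of alveolar type II cells, and Scgb1a1, the main secretoglobin of club cells, were detected on all 6 arrays.

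Goblet cells secrete the gel-forming mucins of airway mucus and are sparse in the airways of a healthy young mouse. They arise from secretory precursors shared with club cells, and their number rises under interleukin 13, which acts through STAT6 and the transcription factor SPDEF. The protein encoded by array symbol Clca3, long known as gob-5, is stored in mucus granules and secreted, and is among the genes most strongly induced in goblet cells of inflamed airways. AGR2 is a protein disulfide isomerase of the endoplasmic reticulum that is needed for mucin folding. FOXA2 is a forkhead transcription factor of lung epithelium that holds back goblet cell differentiation.

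Names in this gene family have changed since the array was designed. By the synonyms of the RefSeq gene table for assembly GRCm38.p6, the array's Clca3 is the gene now called Clca1, and the array's Clca1 is the gene now called Clca3a1. The array's Clca2 is listed there as an older name of both Clca3a2 and the present Clca1, so this probe could not be assigned to a single gene by name. The family has 8 genes in that table, 7 of them protein coding, which lie side by side on chromosome 3. Array symbols are used throughout below.

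Clca3 signal was present in every hSRY-OFF lung and was not detected in any hSRY-ON lung. Its probe (ILMN_2690676) read 649.9, 353.5 and 1154.9 on the arrays of hSRY-OFF replicates 1, 2 and 3, with a detection p of 0 on each, meaning that no negative control probe was as bright. On hSRY-ON replicates 1, 2 and 3 it read 136.8, 153.9 and 151.0, with detection p-values of 0.980, 0.279 and 0.650. The groups did not overlap, as in 46.6% of the 13841 tested probes, and the dimmest hSRY-OFF array was 2.30 times as bright as the brightest hSRY-ON array before any correction. The hSRY-ON readings lay among those of the negative controls, so the level there is known only as a bound. After normalization the hSRY-OFF mean was 8.86 ± 0.95 (SD, n = 3) on the log2 scale. Measured against the lowest signal detected on each hSRY-ON array, this mean places Clca3 at least 10.95-fold lower in hSRY-ON lungs. The bound was 5.47-fold when taken from the dimmest hSRY-OFF array and 20.1-fold from the brightest. It was 3.42-fold without background correction, which leaves the constant background in both terms of the ratio. In RNA of whole lung, fewer goblet cells and less Clca3 RNA per cell cannot be told apart.

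**Figure D1:**
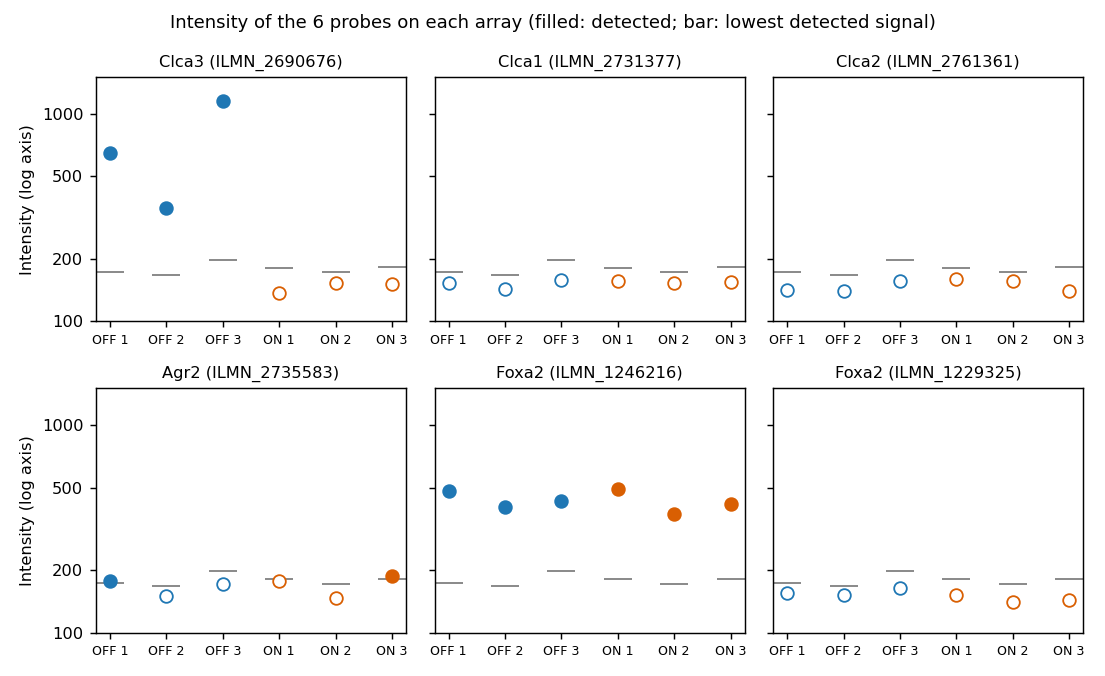
Intensity (log axis, linear units of the scanner as deposited) of the 6 probes on the arrays of hSRY-OFF replicates 1 to 3 (blue) and hSRY-ON replicates 1 to 3 (orange), with filled points for a detection p under 0.05, open points for probes not detected, and grey bars for the lowest detected signal of each array. Clca3 stands above the bars on the 3 hSRY-OFF arrays and below them on the 3 hSRY-ON arrays, while the Foxa2 probe ILMN_1246216 stays between 373.0 and 494.4 on all 6.

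Loss of detection in a whole group was not peculiar to this gene. There were 170 probes detected on all hSRY-OFF arrays and on no hSRY-ON array, and 101 with the opposite pattern. For most of the 170 the hSRY-OFF signal was only just above background, so that the median bound on the fall was 1.32-fold and 15 probes had a bound of at least 2-fold. Clca3 had the largest bound of all 170. The next were Slc22a9 at 4.29-fold, Adam12, a membrane metalloprotease, at 3.75-fold and Gm1008 at 3.38-fold. The size of a bound is set by how far the hSRY-OFF mean lies above background, so it ranks what these arrays could show and not the true falls.

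**Figure D2:**
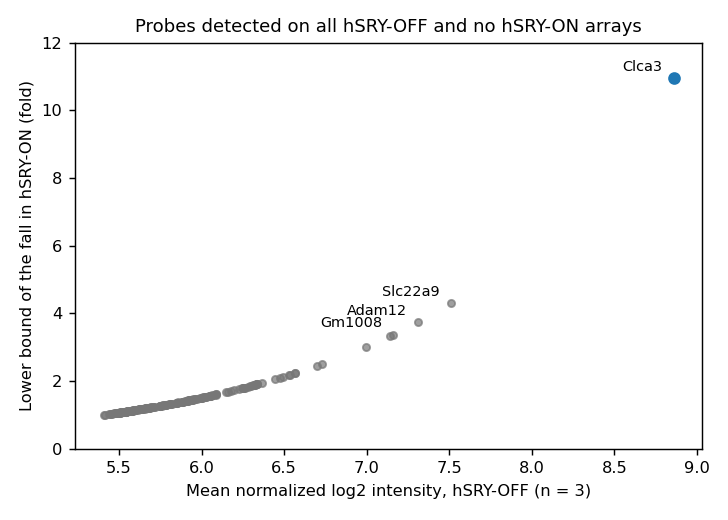
Lower bound of the fall in hSRY-ON lungs (fold, linear axis) against the mean normalized log2 intensity in hSRY-OFF lungs (n = 3) for probes detected on all hSRY-OFF and no hSRY-ON arrays, each point a probe; the 168 of 170 probes with a bound of at least 1 are drawn. Clca3 (blue) lies apart at 10.95-fold, and Slc22a9, Adam12 and Gm1008 follow at 4.29-, 3.75- and 3.38-fold.

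Clca3 also differed widely among the hSRY-OFF mice. The brightest array, replicate 3, read 3.27 times the dimmest, replicate 2, and the ratio was 3.68 after normalization. Its SD over the hSRY-OFF arrays was 0.95 on the log2 scale, where the median tested probe had 0.13, and 5 of the 13841 tested probes had a larger one. These were probes of the muscle light chain Myl1, the chitinase-like gene Chi3l3, the anion exchanger Slc26a4, the transporter Slc10a6 and the natriuretic peptide gene Nppa. All 5 were highest in replicate 3, as Clca3 was, and Chi3l3 and Slc26a4 were also lowest in replicate 2. By intensity Myl1 was lowest there too, though by little (181.4 against 184.5 in replicate 1). The spread is a description of 3 mice and was not tested.

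**Figure D3:**
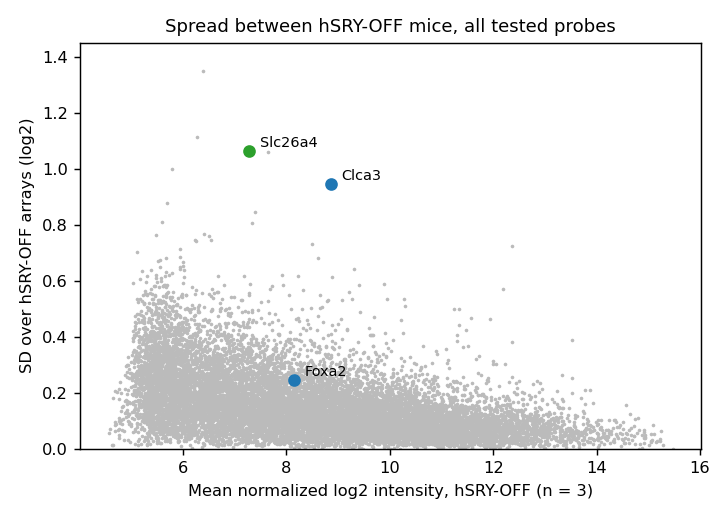
SD over the 3 hSRY-OFF arrays (log2) against the mean normalized log2 intensity in hSRY-OFF lungs for the 13841 tested probes (grey), with the tested probes of Clca3 and Foxa2 (blue) and Slc26a4 (green). Clca3 lies at an SD of 0.95 far above most probes of like intensity, and Foxa2 at 0.25 lies within the cloud.

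None of the other CLCA symbols on the array gave a signal above background. The Clca1 probe (ILMN_2731377) read 153.6, 142.8 and 158.2 in hSRY-OFF and 156.4, 153.2 and 154.1 in hSRY-ON lungs, with detection p-values from 0.298 to 0.675. The Clca2 probe (ILMN_2761361) read 142.0, 140.3 and 156.5 in hSRY-OFF and 160.4, 156.7 and 139.7 in hSRY-ON lungs, with detection p-values from 0.221 to 0.971. The groups overlapped for both, and neither probe was detected on any array. Clca4, Clca5, Clca6 and the symbols AI747448 and EG622139, which are older names of Clca4b and Clca4c-ps, were likewise undetected. Over these 7 symbols and 9 probes all readings lay between 130.9 and 177.5, and none passed the detection threshold. Clca3 was thus the only family symbol on the array with a detected signal in these lungs. A reading below background sets no level, so changes in the other CLCA genes were not detectable with these probes. When all 25697 probes were fitted without a filter, the adjusted p (limma) was 0.586 for Clca1 and 0.475 for Clca2.

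Agr2, the disulfide isomerase of mucin-producing cells, was at the edge of detection. Its probe (ILMN_2735583) read 176.9, 150.1 and 172.1 in hSRY-OFF lungs and 177.8, 146.6 and 188.7 in hSRY-ON lungs. The arrays of hSRY-OFF replicate 1 and hSRY-ON replicate 3 detected it, with detection p-values of 0.0338 and 0.0238, and no other array did. The groups overlapped over almost their whole range, with the highest value in an hSRY-ON and the lowest also in an hSRY-ON lung. Agr2 did not pass the filter, and in the fit without a filter its log2 change was 0.22 (limma, adjusted p = 0.693). A reading this close to background has no room to show a fall like that of Clca3.

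Foxa2 was detected in every lung by 1 of its 2 probes and did not differ detectably between the groups. Probe ILMN_1246216 read 480.4, 405.5 and 433.2 in hSRY-OFF and 494.4, 373.0 and 415.4 in hSRY-ON lungs. By intensity both the highest and the lowest reading came from hSRY-ON lungs, so that the hSRY-OFF readings lay inside the hSRY-ON range. After normalization the lowest log2 value was that of hSRY-OFF replicate 3, at 7.89 against 8.03 for the lowest hSRY-ON lung, and the groups still overlapped. On the normalized log2 scale the means were 8.14 ± 0.25 (SD, n = 3) and 8.25 ± 0.35 (SD, n = 3), a change of 0.11 ± 0.21 (SE; limma, adjusted p = 0.735). The 95% confidence interval ran from -0.39 to 0.60, that is from 0.763- to 1.52-fold. Of all 13841 tested probes, 26.9% were called at an adjusted p under 0.05. The other Foxa2 probe (ILMN_1229325) was detected on no array, with readings between 140.0 and 164.1, and gives no level.

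A list of 20 goblet cell and mucus symbols, which includes Clca3 and Agr2, was used to describe the rest of this programme. The array holds 14 of them, without Muc5b, Muc2, Tff1, Fcgbp, Gcnt3 and Zg16, and 9 passed the filter. Besides Clca3, 8 genes were tested. Bcas1 and Foxa3 rose, no gene fell, and 6 did not pass the test, while by the sign of the fitted change 5 were lower and 3 higher. With 1 probe per gene, 27.9% of all 10292 tested genes were called, 14.9% higher and 12.9% lower. The median log2 change of the 8 genes was -0.66, against -0.0088 for all tested genes. The goblet transcription factor gene Spdef, the trefoil factor gene Tff3, Creb3l4 and the lectin gene Itln1 were detected on no array.

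The secreted mucus components varied from lung to lung. Muc5ac, the gel-forming mucin of surface goblet cells, read 271.5, 240.1 and 310.3 in hSRY-OFF and 196.0, 163.5 and 301.3 in hSRY-ON lungs (log2 change -0.86, SE 0.50, limma adjusted p = 0.236). Tff2, a trefoil peptide packaged with mucins, read 329.7, 280.4 and 496.4 in hSRY-OFF and 164.0, 195.4 and 759.6 in hSRY-ON lungs (log2 change -0.92, SE 0.99, limma adjusted p = 0.517). For both genes hSRY-ON replicates 1 and 2 lay below every hSRY-OFF lung, and replicate 3 lay above every hSRY-OFF lung for Tff2 and, for Muc5ac, within the hSRY-OFF range of intensities though above it after normalization. Clca3 was undetected in that same lung. Muc5ac was not detected in hSRY-ON replicate 2 and Tff2 not in hSRY-ON replicate 1.

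Neither of the tested secretory pathway factors passed the test. Creb3l1, a membrane-bound factor that promotes secretion, read 348.3, 371.0 and 353.5 in hSRY-OFF and 230.6, 220.3 and 313.4 in hSRY-ON lungs. The groups did not overlap, but the log2 change of -0.79 narrowly missed the threshold (limma, adjusted p = 0.0537) and passed it under 9 of 18 alternatives. Ern2, the stress sensor IRE1 beta of mucin-producing epithelia, read 179.2, 173.2 and 217.4 in hSRY-OFF and 155.2, 151.9 and 192.4 in hSRY-ON lungs (log2 change -0.53, limma adjusted p = 0.196). Here too hSRY-ON replicate 3 was the highest of its group, and for Ern2 the only one with a detected signal.

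Slc26a4, the anion exchanger pendrin, which carries anions into the airway surface liquid, read 366.9, 196.3 and 453.2 in hSRY-OFF and 179.9, 182.6 and 225.4 in hSRY-ON lungs. Its order among the hSRY-OFF lungs was that of Clca3, with replicate 2 lowest and replicate 3 highest, and its groups overlapped because of replicate 2. The log2 change was -1.44 ± 0.52 (SE; limma, adjusted p = 0.0781). Without hSRY-OFF replicate 2 it was -2.06 (limma, adjusted p = 0.0168), and of 17 alternatives Slc26a4 was called under this 1 alone. The change was -1.19 without hSRY-OFF replicate 1 (limma, adjusted p = 0.219) and -1.08 without replicate 3 (limma, adjusted p = 0.208). The probe was not detected in hSRY-ON replicate 1. Scin, an actin-severing protein, had a log2 change of 0.66 (limma, adjusted p = 0.125).

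Both genes that rose were detected in all 6 lungs. Bcas1 read 368.5, 335.4 and 435.8 in hSRY-OFF and 488.5, 616.4 and 798.0 in hSRY-ON lungs, with no overlap, and rose by 1.16 ± 0.18 (SE) on the log2 scale (limma, adjusted p = 0.00586). Foxa3, a forkhead factor that promotes goblet cell differentiation in mouse airways, read 198.5, 184.1 and 207.7 in hSRY-OFF and 231.2, 228.1 and 221.9 in hSRY-ON lungs. It rose by 0.80 ± 0.15 (SE) on the log2 scale (limma, adjusted p = 0.0111). Its hSRY-OFF readings lay close to the lowest detected signals of their arrays (173.2, 167.2 and 197.6), and the change was 0.28 without background correction. Bcas1 kept its call under 18 of 18 alternatives and Foxa3 under 16, losing it without hSRY-OFF replicate 2 (limma, adjusted p = 0.0501) and without background correction under median scaling (limma, adjusted p = 0.0638).

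Without hSRY-ON replicate 3, 6 of the 8 genes other than Clca3 were called, where 27.7% of all tested probes were called in that fit. Bcas1 and Foxa3 stayed higher. Creb3l1 (log2 change -1.05, adjusted p = 0.00962), Tff2 (-2.15, adjusted p = 0.0138) and Muc5ac (-1.46, adjusted p = 0.0103) were then lower (limma). As Tff2 was undetected on hSRY-ON replicate 1 and Muc5ac on hSRY-ON replicate 2, the sizes of these 2 changes rest partly on undetected readings. Ern2 was also called lower (limma, adjusted p = 0.0183), but neither remaining hSRY-ON array detected it, so its change there has no measured size. Tff2, Muc5ac and Ern2 were called under this alternative alone, whereas Creb3l1 was also called under others. For all of these hSRY-ON replicate 3 was the highest of its group, so larger falls without it follow from the omission.

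**Figure D4:**
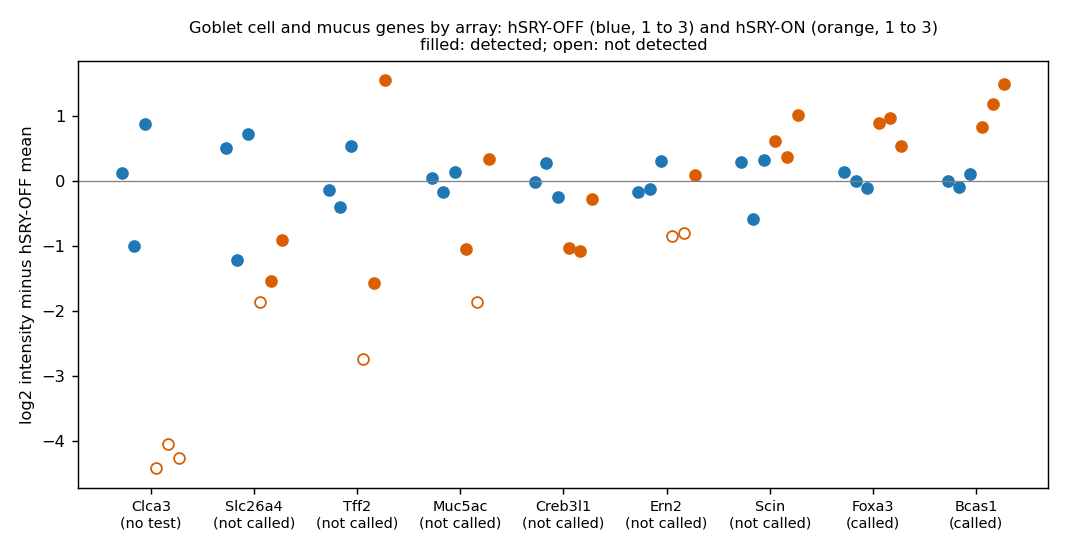
Normalized log2 intensity minus the hSRY-OFF mean of the same gene for the 9 tested goblet and mucus genes, with hSRY-OFF replicates 1 to 3 in blue and hSRY-ON replicates 1 to 3 in orange from left to right, and open points for arrays without detection. All 3 hSRY-ON points of Clca3 are undetected, replicate 3 of hSRY-ON is the highest hSRY-ON point for Tff2, Muc5ac, Creb3l1 and Ern2, and Foxa3 and Bcas1 were called higher.

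The tested genes for chloride and fluid transport, which hydrates mucus, showed no loss like that of Clca3. Slc26a4, given above, had a log2 change of -1.44 and was not called. Bsnd and the other CLCA symbols of the list were detected on no array, so no loss could be seen for them. Apart from Clca3 and Slc26a4, 6 genes of the list were tested, and 2 of them rose, where 14.9% of all tested genes did. Slc12a2, the sodium-potassium-chloride cotransporter of the basolateral membrane, rose by 0.48 (limma, adjusted p = 0.0230), and a further tested probe of it also rose. The call was lost without hSRY-OFF replicate 1 or 2 or hSRY-ON replicate 2 (limma, adjusted p from 0.0553 to 0.0982). Slc26a9, an apical chloride channel, rose by 0.83 on its brightest probe (limma, adjusted p = 0.00587), but 3 other probes of the gene were not called. Ano1, the calcium-activated chloride channel whose surface level the secreted product of the Clca3 gene is known to modulate, had a log2 change of -0.28 (limma, adjusted p = 0.444). The corresponding value was 0.37 for Cftr, the cAMP-activated chloride channel (limma, adjusted p = 0.251).

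Of 10 tested enzymes that attach and extend mucin sugars, 1 rose and 2 fell, a share close to the 27.9% of all tested genes that were called, and the median log2 change was -0.14. Gcnt1, which branches core O-glycans, rose by 1.44 (limma, adjusted p = 0.00340). Galnt10, which starts O-glycan chains, fell by 0.62 (limma, adjusted p = 0.0407), and the sialyltransferase gene St6galnac4 fell by 0.59 (limma, adjusted p = 0.0495). For the last of these, 3 further probes were not called. The call of St6galnac4 was kept under 8 of 18 alternatives and that of Galnt10 under 11, and both were lost with any hSRY-OFF array or hSRY-ON replicate 2 left out, St6galnac4 also without hSRY-ON replicate 1.

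Among the disulfide isomerase family to which Agr2 belongs, 4 of 11 tested genes fell and none rose, where 12.9% of all tested genes fell. Pdia4 fell by 0.80 (limma, adjusted p = 0.00828), Pdia6, detected on 2 of the 3 hSRY-ON arrays, by 1.05 (adjusted p = 0.0331), Pdia3 by 0.58 (adjusted p = 0.0331) and Pdia5 by 0.46 (adjusted p = 0.0360). Pdia4 kept its call under 18 of 18 alternatives, Pdia3 under 11 of 18, Pdia5 under 12 of 18 and Pdia6 under 12 of 17. The calls of Pdia3 and Pdia5 were lost with any hSRY-OFF array left out, and that of Pdia6 without hSRY-OFF replicate 1 or 3. Without hSRY-ON replicate 2 all 3 were lost, as were Pdia3 without hSRY-ON replicate 1 and Pdia5 and Pdia6 without hSRY-ON replicate 3. These enzymes fold proteins in the endoplasmic reticulum of most cell types and are not particular to goblet cells. Agr3, the closest relative of Agr2, was detected on no array. A further tested probe of Pdia5 also fell, whereas 1 probe of Txndc11 that did not represent its gene rose, so the absence of rises holds for 1 probe per gene.

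Transcription factors of lung epithelium, to which Foxa2 belongs, included 6 that rose and none that fell among 17 tested, where 14.9% of all tested genes rose, with a median log2 change of 0.34. Foxj1, the factor of motile cilia, rose by 1.15 (limma, adjusted p = 0.00647). Elf3, an ETS factor of epithelia, rose by 1.10 (limma, adjusted p = 0.0116), though not without hSRY-OFF replicate 2 (adjusted p = 0.0516), and Foxa3 is given above. Grhl2 and Klf5 also rose, and lost their calls with any hSRY-OFF array or hSRY-ON replicate 2 left out. Of the relatives of Foxa2, Foxa1 read 1011.6, 949.9 and 958.2 in hSRY-OFF and 1148.2, 1374.4 and 1112.1 in hSRY-ON lungs, without overlap and with a log2 change of 0.44 that did not pass the test (limma, adjusted p = 0.0896). Thus of the 3 FOXA genes Foxa3 alone was called, although whether it differed from Foxa1 and Foxa2 was not tested. Nkx2-1, the master factor of lung identity, had a log2 change of -0.42 (limma, adjusted p = 0.409) on its brighter probe and 0.33 on the other (limma, adjusted p = 0.203), and Ehf was detected on no array.

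The interleukin 4 and interleukin 13 pathway, which drives goblet cell formation, had 1 gene that rose and 2 that fell among 10 tested, a share close to that of all tested genes (27.9%). Il13 itself read between 202.1 and 258.9 on the 6 arrays and had a log2 change of -0.05 (limma, adjusted p = 0.883). Stat6, which carries the signal to the nucleus, had a log2 change of 0.32 (limma, adjusted p = 0.191) on its brighter probe and -0.36 on the other (limma, adjusted p = 0.344). Il13ra1, a receptor chain for interleukin 13, rose by 0.62 (limma, adjusted p = 0.0147). Il2rg, the receptor chain shared by many interleukins, fell by 0.86 (limma, adjusted p = 0.00630), and Il33, an epithelial alarm cytokine, fell by 0.59 (limma, adjusted p = 0.0285). The call of Il33 was lost with any array other than hSRY-ON replicate 1 left out, and that of Il13ra1 without hSRY-OFF replicate 1 or 3. Il4, Il4ra, Il13ra2, Il25, Tslp and Jak1 were detected on no array.

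**Figure D5:**
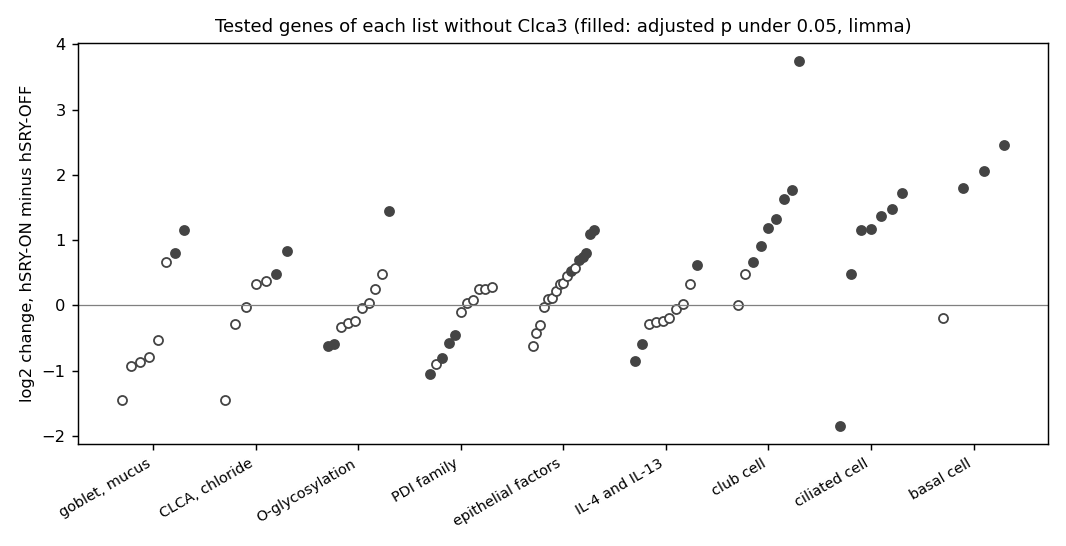
Log2 change, hSRY-ON minus hSRY-OFF, of each tested gene (1 probe per gene, Clca3 left out) by gene list, with filled points for an adjusted p under 0.05 (limma); Slc26a4, Foxa3 and Foxj1 stand in more than 1 list. Goblet and mucus genes lie on both sides of 0, from -1.44 to 1.16, while the club cell genes lie between 0.01 and 3.75 and all but 1 of the ciliated cell genes lie above 0.

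Most tested markers of other airway epithelial cells were higher in hSRY-ON lungs. Of 9 tested club cell genes 7 rose and none fell, where 14.9% of all tested genes rose, with a summed normalized signal between 74424 and 77103 in hSRY-OFF and between 112658 and 129544 in hSRY-ON lungs. Scgb1a1, the defining gene of these cells, stayed between 29488 and 33784 in all 6 lungs (log2 change 0.01, limma adjusted p = 0.972). Scgb3a1, a secretoglobin of upper airway secretory cells, read 209.0, 224.0 and 230.2 in hSRY-OFF and 842.7, 1034.2 and 1730.3 in hSRY-ON lungs and rose by 3.75 (limma, adjusted p = 0.000603). Its relative Scgb3a2 rose on 1 probe (log2 change 1.52, limma adjusted p = 0.00166) and had a log2 change of 0.48 on the brighter one (limma, adjusted p = 0.0571). Of 7 tested ciliated cell genes 6 rose and 1, Tubb4, fell, and the summed signal went from 2858 to 3040 in hSRY-OFF and from 5894 to 7324 in hSRY-ON lungs. Of 4 tested basal cell genes 3 rose, with sums from 203 to 257 and from 669 to 1158, but the defining basal genes Krt5 and Trp63 were detected on no array. Among markers of other tissue that a lung sample can include, 1 of 3 tested cartilage genes was called lower, where 12.9% of all tested genes were. It was Col2a1 (limma, adjusted p = 0.00370), which was detected on 1 of the 3 hSRY-ON arrays. By the sign of the fitted change 2 of the 3 cartilage genes were lower and 1 was higher, by 0.44. Of the 17 cartilage probes 11 were detected on no array. The summed signal of the 3 genes, Col2a1 included, ran from 270 to 331 in hSRY-OFF and from 181 to 199 in hSRY-ON lungs. Of the remaining lists, 2 of 8 tested lymphatic genes rose, 1 of 4 gland genes rose, and of 4 gut epithelial genes 1 rose and 1 fell. The part of these shifts in the loss of Clca3 signal was not tested.

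Finally, the probes whose pattern over the 6 arrays came nearest to that of Clca3 were found by the mean absolute difference between log2 values, each centred on its own mean. The nearest of all tested probes were those of Rcan1, a regulator of calcineurin, at 0.77, the sodium channel gene Scn7a at 0.81, the muscle light chain gene Myl2 at 0.85, Gm1008 at 0.85 and LOC100046044 at 0.86. No goblet or mucus gene was among these 5, but only 8 besides Clca3 were among the 13841 tested probes, so their absence says little. The distances also depend on the size of the fall for which Clca3 was chosen. They take its undetected hSRY-ON readings as they stand. Even the closest differed from Clca3 by 0.77 per array on average. The 5 nearest to the detected Foxa2 probe, whose pattern was almost flat, were Olfr802 at 0.06, Alcam and Cd40 at 0.07, and 6330503C03Rik and Cxcl12 at 0.08. These distances describe 6 arrays and were not tested.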

How the data were processed

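Biotinylated cRNA from each lung was read on 1 BeadChip. The authors deposited, for each probe and array, an intensity on a linear scale that was neither background-corrected nor normalized, and a detection p-value. The bead summarising software is not given in the sources used here. The number of arrays, 3 per group, limits the precision of every value. The study's methods name the R package TCC, which models counts, and the submitters' processing notes list limma. As the deposited values are intensities, limma served here (limma 3.58.1, R 4.3.3). Signals were corrected for background by normexp with detection p-values (offset 16), quantile-normalized and put on the log2 scale. Near background the offset compresses fold changes. A probe was kept if 3 or more of 6 arrays detected it (p under 0.05), which held for 13841 of 25697 (53.9%). Comparisons used lmFit and eBayes with no covariate, two-sided, and Benjamini-Hochberg adjustment over all kept probes at a threshold of 0.05. The pipeline was tested on simulated data. No 2 arrays held identical values.

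For a probe detected on no array of a group, the bound sets the mean of the other group against the mean of a floor in the undetected arrays: the lowest detected value of the array, or the probe itself where it read higher. Lists were counted on 1 kept probe per gene, the brightest on average, and overlap of groups was judged on normalized values. All probes of the 5 symbols and of the goblet list were named whatever their result; from the other lists, up to 4 called genes with the smallest p-values and a set of fixed genes were named, and Agr3, Ehf, Grhl2, Klf5 and Txndc11 were added after their values were seen. A gene chosen by this rule is left out of the text. The members and lists were chosen with earlier results of these data known. Current names came from RefSeq (GRCm38.p6); the files give no genome positions, so none are printed. Replicates are separate mice by their labels, which give no pairing of the groups by replicate number. Alternatives covered background correction, normalization, filters, variance models, a replicate block and leaving out each array.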

Additional observations from a re-analysis of the deposited data

How the results depend on the processing

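The bound on the fall of Clca3 was at least 10.95-fold, and between 6.58- and 11.02-fold with an offset of 50, median scaling, cyclic loess or a stricter detection floor. It was 3.42-fold without background correction and 3.50-fold without it and with median scaling. Leaving out 1 array gave 7.98-fold (without hSRY-OFF replicate 3) to 15.6-fold (without hSRY-OFF replicate 2). With any hSRY-OFF array left out, or with detection required on all 6 arrays, Clca3 failed the filter by construction. The change of Foxa2 stayed near 0 and was not called under any of its alternatives (adjusted p from 0.551 to 0.975). It was -0.0074 with median scaling and no background correction, and leaving out 1 array gave -0.094 to 0.23, below 0 when hSRY-OFF replicate 3 (-0.02) or hSRY-ON replicate 1 was omitted. The number of goblet and mucus genes called was 2 without Clca3, which was chosen for its fall, and 2 or 3 under all settings that kept the 6 arrays. With Clca3 counted it was 3, and ran from 2 to 7 with 1 array left out, with 7 without hSRY-ON replicate 3. Clca3 entered this count by selection and is no test, and it left the count by construction when any hSRY-OFF array was omitted. Without Clca3 the count was 6 when hSRY-ON replicate 3 was left out, and 2 when any other array was.

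The other 5 functional lists held 19 called genes of 56 tested (10 higher, 9 lower), where 27.9% of all tested genes were called. Clca3, which was chosen for its fall and so is no test, is counted among the lower genes, and Foxa3 is counted again. The number was 16 to 24 under settings other than the block that kept all arrays. This number ran from 8 to 21 with 1 array left out, and fewer were called without any one of the hSRY-OFF arrays (8, 9 and 10) or without hSRY-ON replicate 2 (10). Calls over all tested probes fell in the same fits. Their share went from 26.9% to 11.2%, 12.1% and 15.5% without hSRY-OFF replicates 1, 2 and 3. Without hSRY-ON replicate 2 it was 17.7%. Clca3 also left the count without any hSRY-OFF array, as it then failed the filter. With the replicate number as a block the lists held 12 called genes (8 higher, 4 lower), and 2655 of all tested probes were called in place of 3728. Same-numbered arrays of the groups deviated from their group means with correlations of -0.11, 0.10 and -0.09. Arrays with different numbers gave -0.09 to 0.16, so no pairing by number was seen. With 3 arrays per group, these values cannot show whether litters or handling were shared. The block left Bcas1 and Foxa3 called and Foxa2 uncalled (adjusted p = 0.630). Of 341 refits of 19 single genes, 281 kept their call, 60 lost it and none reversed. The cause of these losses was not tested.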

Other observations

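Several genes known to be induced by interleukin 13 or in type 2 inflammation shared the order of Clca3 among the hSRY-OFF lungs, lowest in replicate 2 and highest in replicate 3 by intensity. They were picked by hand after that order was seen and were not tested, so they do not show how common it is among such genes. Il13 itself did not share it, at 206.3, 219.0 and 258.9 in hSRY-OFF replicates 1, 2 and 3, with replicate 1 lowest. Il33 did, at 812.3, 722.7 and 964.9. The rest of the pathway list that holds Il13 is not described for this order. The median intensity of the hSRY-OFF arrays had the order of Clca3 too, at 185.4, 177.1 and 204.0 for replicates 1, 2 and 3. The lectin gene Itlnb read 650.9, 349.2 and 757.3 in hSRY-OFF and 177.2, 207.1 and 418.1 in hSRY-ON lungs. Retnla, which encodes a secreted product of airway epithelium and alternatively activated macrophages, read 6781, 2775 and 8111 in hSRY-OFF and 3588, 3094 and 5965 in hSRY-ON lungs. Arg1, the arginase of such macrophages, read 295.4, 230.3 and 526.5, then 374.8, 292.7 and 744.5. In hSRY-ON replicate 3 these 3 genes were the highest of their group, while Clca3 was undetected there. After normalization hSRY-OFF replicates 1 and 3 were nearly level for Itlnb (8.99 and 9.02 on the log2 scale) and for Retnla (12.77 and 12.79). Replicate 2 was still the lowest hSRY-OFF value, at 7.82 for Itlnb and 11.52 for Retnla.

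The eosinophil-associated gene Ear11 read 219.3, 153.9 and 377.5 in hSRY-OFF lungs and was not detected in replicate 2 of them. It was detected in no hSRY-ON lung, where it read 155.3, 154.2 and 174.2, and the groups overlapped. Chi3l3, which encodes a chitinase-like protein of alternatively activated macrophages, was likewise lowest in replicate 2, at 632.4, 327.3 and 721.0 (probe ILMN_2712986; replicates 1 and 3 were level after normalization, at 8.93 and 8.92 on the log2 scale), but read 6223, 10495 and 2037 in hSRY-ON lungs, with replicate 3 the lowest. Prg2, the eosinophil major basic protein gene, was 200.7, 207.5 and 345.7 in hSRY-OFF and 155.3, 152.0 and 202.4 in hSRY-ON lungs, and so did not follow the order.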
